A study of Homo sapiens with 90 samples.

Results

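The genes described here build ribosomes. The set was given as 37 symbols of ribosome biogenesis and nucleolar genes, and 36 of them were matched to an identifier among the 53893 of the expression table, while BOP1 was not matched and has no value here. Levels are in CPM, read counts scaled to the total of the library after that total was adjusted by a TMM factor. TMM corrects for differences in composition between libraries, and the filter at 1 CPM used totals without it. All 36 reached 1 CPM in at least 3 libraries of every line, and they were tested among the 11875 genes that did. RNA had been sequenced from 6 established human cancer cell lines, each treated with an inhibitor of a growth signalling kinase. The targeted drug was vemurafenib (BRAF, 1 uM) for A375 melanoma and GSK1120212, also called trametinib (MEK, 200 nM), for the lung line A549. For the lung line H3122 it was crizotinib (ALK, 250 nM), and for the lung line PC9 erlotinib (EGFR, 1 uM). Gastric N87 cells were given lapatinib (EGFR and ERBB2, 100 nM), and RT112, a bladder line, was given BGJ398 (FGFR, 1 uM). In further arms THZ1 was given alone or added to the targeted drug. THZ1 binds covalently to CDK7, a kinase of the transcription machinery, and also to CDK12 and CDK13. The THZ1 dose differed between lines, at 25 nM in N87, 50 nM in A375 and H3122, 100 nM in PC9 and RT112, and 150 nM in A549. Treatment lasted 48 h with 0.1% DMSO, targeted drug, THZ1 or both drugs, and the last arm kept the targeted drug for 7 days, with 3 libraries for each line and arm and 90 in all. A vehicle arm of 7 days was not analysed here, so the 7-day arm is set against DMSO of 48 h. No label says that libraries of 1 group are separate cultures, so a p-value from 1 line reflects the spread between its libraries, which may be technical. Tests across lines take the line as the replicate. Tests of a difference between lines were fitted on all 90 libraries, so their p-values also reflect the spread between libraries and not between lines.

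Ribosome assembly starts in the nucleolus, where RNA polymerase I transcribes the ribosomal RNA precursor. Small nucleolar ribonucleoproteins (snoRNPs) then guide chemical modification of that RNA, and a large set of processing factors, helicases and chaperones cuts and folds it into the small and the large subunit. The pathway is a major cost of growth, is fed by growth factor and MAPK signalling, and is a well known target of the transcription factor MYC, which binds the E-box CACGTG.

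The E-box was searched in the promoters of the set because it is the sequence element best known for these genes. RefSeq promoter windows from 250 bases before to 50 after the start were found for 32 of the 36 genes. CACGTG, which reads the same on both strands, was present in 14 of the 32 (43.8%). All 14 had a copy within 50 bases of the start. Among the 9139 genes tested across lines that had a window, 12.8% held the sequence and 5.6% held it within 50 bases of the start. The share near the start was 23.6% of 89 other ribosome biogenesis genes, 3.7% of 27 cytosolic ribosomal protein genes and 0 of 23 mitochondrial ribosomal protein genes. For 20 proliferation genes it was 10%. Over the whole window these lists had 31.5, 3.7, 17.4 and 25%, in the same order. Stretches around the E-box of 6 members that recur in the results are printed 5′ to 3′ on the strand of the gene, with the E-box in capitals.
FBL (GRCh38.p14, chr19:39846356-39846385, minus strand): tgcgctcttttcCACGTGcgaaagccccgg
WDR43 (GRCh38.p14, chr2:28894658-28894687, plus strand): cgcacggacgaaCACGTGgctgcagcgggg
DDX21 (GRCh38.p14, chr10:68956604-68956633, plus strand): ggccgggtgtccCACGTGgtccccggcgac
MRTO4 (GRCh38.p14, chr1:19251807-19251836, plus strand): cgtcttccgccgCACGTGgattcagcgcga
GNL3 (GRCh38.p14, chr3:52686026-52686055, plus strand): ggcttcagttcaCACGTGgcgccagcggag
NOP2 (GRCh38.p14, chr12:6568242-6568268, minus strand): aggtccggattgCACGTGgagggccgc
The first base of the E-box lies 31 bases before the start in DDX21. It lies 4 bases after the start in WDR43, 7 in FBL and GNL3, 15 in MRTO4 and 36 in NOP2. A match of these letters is a description of the window, and binding was not measured.

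**Figure D1:**
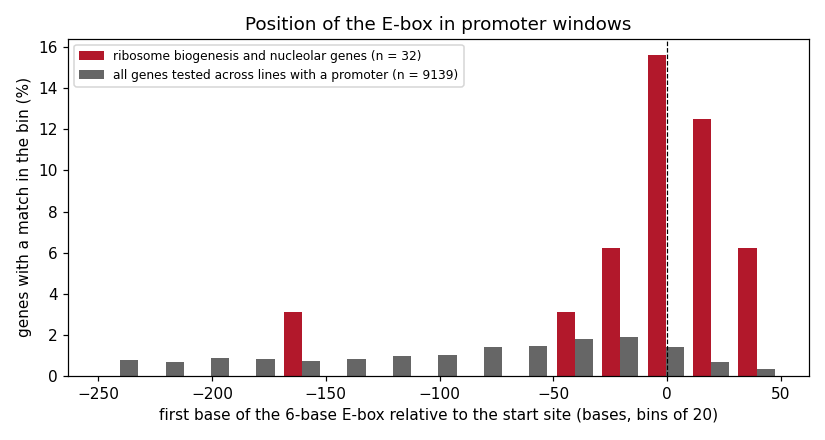
Share of genes (y axis, %) with the first base of an E-box in each bin of 20 bases around the annotated start (x axis, bases), for the 32 ribosome biogenesis and nucleolar genes with a promoter window and for the 9139 genes tested that have one. In the set the matches gather around the start, with 15.6% of genes in the bin from -10 to 9, where the tested genes have 1.40%.

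Library totals ran from 5641054 to 14361081 expected counts, and libraries of 1 group correlated at 0.9904 or more. The RT112 libraries numbered 1, present in 4 arms, deviated together from their groups (r from 0.21 to 0.48), and the 7-day replicate 1 of H3122 had NPM1 at 914 CPM beside 513 and 609. Without these libraries 33 members were called lower under the targeted drug at 48 h, 29 at 7 days and 24 in the combination, each against DMSO. The counts with all libraries are given below, beside the share of all tested genes called. That share is not given for the fits without these libraries. Of the A375 vemurafenib libraries 1 carries a lung tissue label. Markers of the labelled tissue were in part absent in DMSO. Of 6 markers for each tissue, A375 had 2 of melanocytes at 1 CPM or more (SOX10 at 863 CPM, TYR at 0), and RT112 had 5 of urothelium (UPK1B at 537, UPK3A at 0.03). Every other line also had 2 melanocyte markers at 1 CPM or more, so that count does not mark A375, but SOX10 was at 0.265 CPM or less in them. H3122 had 3 of lung (NKX2-1 at 247, SFTPC and SCGB1A1 at 0), and A549 and PC9 had 0. N87 had 1 of stomach, and its markers summed to 4.71 CPM for stomach and 76.1 for urothelium. UPK1B was also at 261 CPM in A549. Summed blood cell markers reached at most 11.3 CPM. Summed fibroblast and endothelium markers reached 179 CPM in H3122 (COL1A1 at 163) and 169 in RT112 (LUM at 145). All levels are relative to the other genes of a library, with no spike-in used here. A change shared by most genes, in RNA per cell or in cell number, therefore cannot be seen. Calls of higher and lower are relative in this sense, also under THZ1 and in the combination.

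In DMSO the levels of the set spanned a wide range. Per kilobase of the longest protein-coding transcript in GENCODE v29, the mean DMSO level over the 6 lines was highest for NPM1, the histone chaperone nucleophosmin, at 802 CPM per kb. NCL, the RNA-binding protein nucleolin, followed at 298, the methyltransferase fibrillarin (FBL) at 173, and NHP2 and NOP10 of the box H/ACA snoRNP at 163 and 109. WDR12, of the large subunit, was lowest at 4.98. These values depend on the length chosen: the longest NCL transcript has 4034 bases and the median 748, while WDR12 has 8100 for both. The summed level of the 36 genes in DMSO was highest in A549, at 8072 ± 113 CPM (SD, n = 3), and lowest in PC9, at 4370 ± 118 (SD, n = 3). PC9 was the lowest line for 23 genes and the highest for 0, and A549 was the highest for 17. The same counts were not made over all tested genes, so this order may not be particular to the set. The highest line exceeded the lowest by a median of 2.23-fold, from 1.34-fold for NPM1 to 3.95-fold for RRP12, a factor of small subunit maturation. The lines differ in tissue, driver and medium, and no test was made between them in DMSO.

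The targeted drug for 48 h lowered nearly the whole set. Across lines, 34 of the 36 genes were called lower and 0 higher, beside 18.5% of all tested genes called lower and 18.6% called higher (edgeR quasi-likelihood, Benjamini-Hochberg adjusted p under 0.05). The median log2 fold change of the set was -0.93, against 0.05 for all tested genes. The genes that missed the threshold were NOB1, at -0.31 (SE 0.17, adjusted p = 0.157), and UBTF, at 0.001 (SE 0.13, adjusted p = 0.995). NOB1 is the nuclease that makes the last cut of the small subunit RNA. In 32 of the 36 genes the value was below 0 in all 6 lines, and 26 were called lower in each of the 6. The share of all tested genes that meet either condition was not counted. The number called lower was 33 in A375, where 32.9% of all genes tested were called lower, and 36 in A549 (37.4%). RT112 had 35 (35.1%), N87 had 35 (35.4%), PC9 had 33 (32.8%) and H3122 had 30 (24.1%). A375, H3122 and PC9 each had 1 gene called higher, UBTF at 0.26 in A375 and 0.33 in H3122 and NOB1 at 0.40 in PC9, where 34.3%, 22% and 35.2% of all genes were called higher. The largest called fall was NPM3 in A549 (-2.17) and N87 (-1.88), NOP16 in RT112 (-2.40) and PC9 (-1.26), DKC1 in A375 (-1.29) and DDX21 in H3122 (-0.96). The median log2 fold change of the set was -1.58 in A549, -1.41 in RT112, -1.03 in N87, -0.84 in A375, -0.65 in PC9 and -0.43 in H3122.

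**Figure D2:**
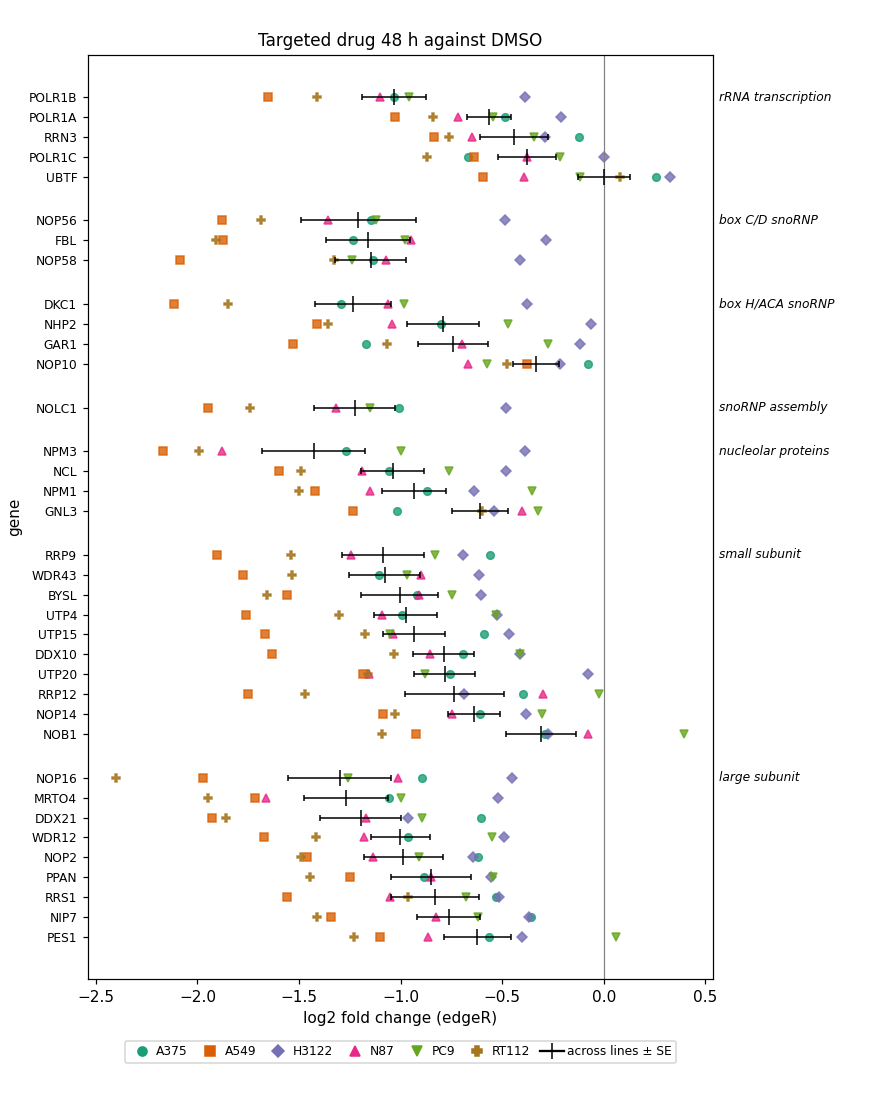
Log2 fold change of each gene (x axis) under the targeted drug for 48 h against DMSO, with genes on the y axis grouped by role. Coloured points are the 6 lines and black bars are the value across lines ± SE. All lines lie left of 0 for most genes, A549 and RT112 lie farthest left, and UBTF and NOB1 lie on both sides of 0.

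Of the genes that transcribe ribosomal RNA, the 3 polymerase subunits and RRN3 fell and UBTF was not called. POLR1B, the second largest subunit of RNA polymerase I, was at 58.5, 62.4 and 67.2 CPM in the 3 A549 DMSO libraries and 19.3, 20.7 and 22.4 under trametinib, and at 39.3, 40.4 and 40.6 and then 14.9, 15.6 and 16.7 in RT112. These groups did not overlap, and across lines POLR1B changed by -1.03 (SE 0.16, adjusted p = 0.000128). The largest subunit POLR1A changed by -0.57 (SE 0.11, adjusted p = 0.000638), POLR1C, which the enzyme shares with RNA polymerase III, by -0.38 (SE 0.14, adjusted p = 0.0425), and the initiation factor RRN3 by -0.44 (SE 0.17, adjusted p = 0.04). RRN3 has near-identical pseudogene copies, so its counts depend on how shared reads were divided. UBTF, the factor that binds the ribosomal DNA promoter and keeps it open, was at 155, 163 and 165 CPM in A375 DMSO and 192, 192 and 201 under vemurafenib, and the vemurafenib libraries were the higher ones. In A549 it was at 200.1, 209 and 211 in DMSO and 139.6, 139.9 and 150.4 under trametinib, and there every treated library was below every DMSO library. By line the UBTF log2 fold change was 0.33 in H3122, 0.26 in A375, 0.08 in RT112, -0.12 in PC9, -0.39 in N87 and -0.59 in A549.

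The snoRNP proteins fell together, except for a smaller change in NOP10. All 3 core box C/D proteins, which carry out ribose methylation, were called lower across lines, NOP56 at -1.21 (SE 0.28, adjusted p = 0.00253), NOP58 at -1.15 (SE 0.17, adjusted p = 0.000128) and FBL at -1.16 (SE 0.21, adjusted p = 0.00036). NOP56 was at 407, 408 and 414 CPM in A549 DMSO and 107, 118 and 124 under trametinib, and at 197, 197 and 199 in H3122 DMSO and 134, 139 and 146 under crizotinib. The treated libraries were lower in both lines without overlap. DKC1, the pseudouridine synthase of the box H/ACA snoRNP, was at 158, 158 and 169.5 CPM in A375 DMSO and 61.4, 68.7 and 70.1 under vemurafenib, and changed by -1.23 (SE 0.19, adjusted p = 0.000128) across lines. Its partners NHP2, GAR1 and NOP10 changed by -0.79, -0.74 and -0.33, with adjusted p of 0.00185, 0.00228 and 0.0258. In H3122 none of these 3 was called, with values of -0.07, -0.12 and -0.21. NOLC1, which helps snoRNPs assemble in the nucleolus and Cajal bodies, was at 114, 115 and 116 CPM in PC9 DMSO and 49.3, 50.7 and 52.5 under erlotinib, and changed by -1.23 (SE 0.20, adjusted p = 0.000175) across lines.

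Of the nucleolar proteins NPM1, NPM3, NCL and GNL3, NPM3 had the lowest log2 fold change of the 36 across lines. NPM3, a relative of nucleophosmin, was at 44.6, 45.4 and 45.5 CPM in A549 DMSO and 10.2, 10.5 and 10.9 under trametinib, and at 44.6, 45.9 and 48.9 in H3122 DMSO and 33.4, 34.1 and 38.1 under crizotinib. It changed by -1.43 (SE 0.25, adjusted p = 0.00034) across lines. NPM1 was at 1320, 1359 and 1377 CPM in RT112 DMSO and 487, 503 and 503 under BGJ398, and at 1156, 1245 and 1256 in PC9 DMSO and 899.7, 915 and 999.7 under erlotinib. The fall in PC9, at -0.35, was the smallest of the 6, and the value across lines was -0.93 (SE 0.16, adjusted p = 0.000214). NPM1 has many processed pseudogenes, so its counts also depend on the division of shared reads. NCL changed by -1.04 (SE 0.16, adjusted p = 0.000128), and GNL3, the GTP-binding nucleolar protein nucleostemin, by -0.61 (SE 0.14, adjusted p = 0.00177).

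Of the 10 small subunit factors, 9 fell across lines, and all 9 large subunit factors did. WDR43, which with UTP4 and UTP15 joins the start of transcript processing to polymerase I, was at 262, 262 and 266 CPM in H3122 DMSO and 166, 171 and 176 under crizotinib, and changed by -1.08 (SE 0.17, adjusted p = 0.000165) across lines. UTP4, UTP15, UTP20, RRP9, BYSL, DDX10 and NOP14, which act in or after the small subunit processome, changed by between -1.09 for RRP9 and -0.64 for NOP14. NOB1 was at 55.1, 59.8 and 62.3 CPM in PC9 DMSO and 74.3, 76.2 and 78.9 under erlotinib, higher in every treated library, and at 80.4, 86.2 and 87.4 and then 40.1, 40.1 and 44.0 in RT112, lower in every treated library. RRP12 was uneven, called lower in 5 lines and at -0.02 in PC9, with 46.0, 49.1 and 50.7 CPM in DMSO and 45.0, 48.0 and 48.2 under erlotinib there. In RT112 replicate 1 RRP12 was at 62.9 CPM under BGJ398, with 32.2 and 32.6 in the other libraries, and all 3 were below the DMSO libraries at 101, 107 and 132. For the large subunit, NOP16 was at 49.6, 51.0 and 59.6 CPM in RT112 DMSO and 9.66, 9.94 and 12.1 under BGJ398, the lowest log2 fold change of any member in any line in this comparison, at -2.40. DDX21, a nucleolar RNA helicase, was at 456, 457 and 464 CPM in A549 DMSO and 121, 129 and 129.5 under trametinib, and changed by -1.196 (SE 0.20, adjusted p = 0.000208) across lines. MRTO4, a stalk assembly factor, changed by -1.27 (SE 0.21, adjusted p = 0.000177), and the methyltransferase NOP2 by -0.99 (SE 0.19, adjusted p = 0.000658). PES1 and WDR12, partners in the complex that BOP1 completes, changed by -0.62 and -1.002, and PPAN, RRS1 and NIP7 by -0.85, -0.83 and -0.76.

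Most other ribosome biogenesis genes were also lower. Of 103 other ribosome biogenesis genes, 86 were called lower and 0 higher across lines, with a median of -0.64. The largest falls were in LYAR, a nucleolar growth regulator, at -2.20 (SE 0.34), and in TCOF1, the treacle protein of ribosomal DNA transcription, at -1.78 (SE 0.28). Of 24 mitochondrial ribosomal protein genes 24 were called lower, with a median of -0.59. Of 35 cytosolic ribosomal protein genes 4 were called lower, with a median of -0.19. By line, all 35 were called lower in A549 and in RT112, with medians of -0.69 and -0.88, while in the other 4 lines the median lay between -0.08 and 0.02. Proliferation genes moved with the set in 5 lines: all 25 were called lower in A375, A549, N87, PC9 and RT112, with medians of -3.78, -2.94, -2.18, -3.58 and -1.97. In H3122 9 of the 25 were called higher and 6 lower, and their summed level was 6075 ± 80.1 CPM in DMSO and 6421 ± 81.9 under crizotinib (SD, n = 3). In the same libraries the 36 genes summed to 5860 ± 155 and 4215 ± 77.0 CPM. The part of proliferation in the result was not tested.

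**Figure D3:**
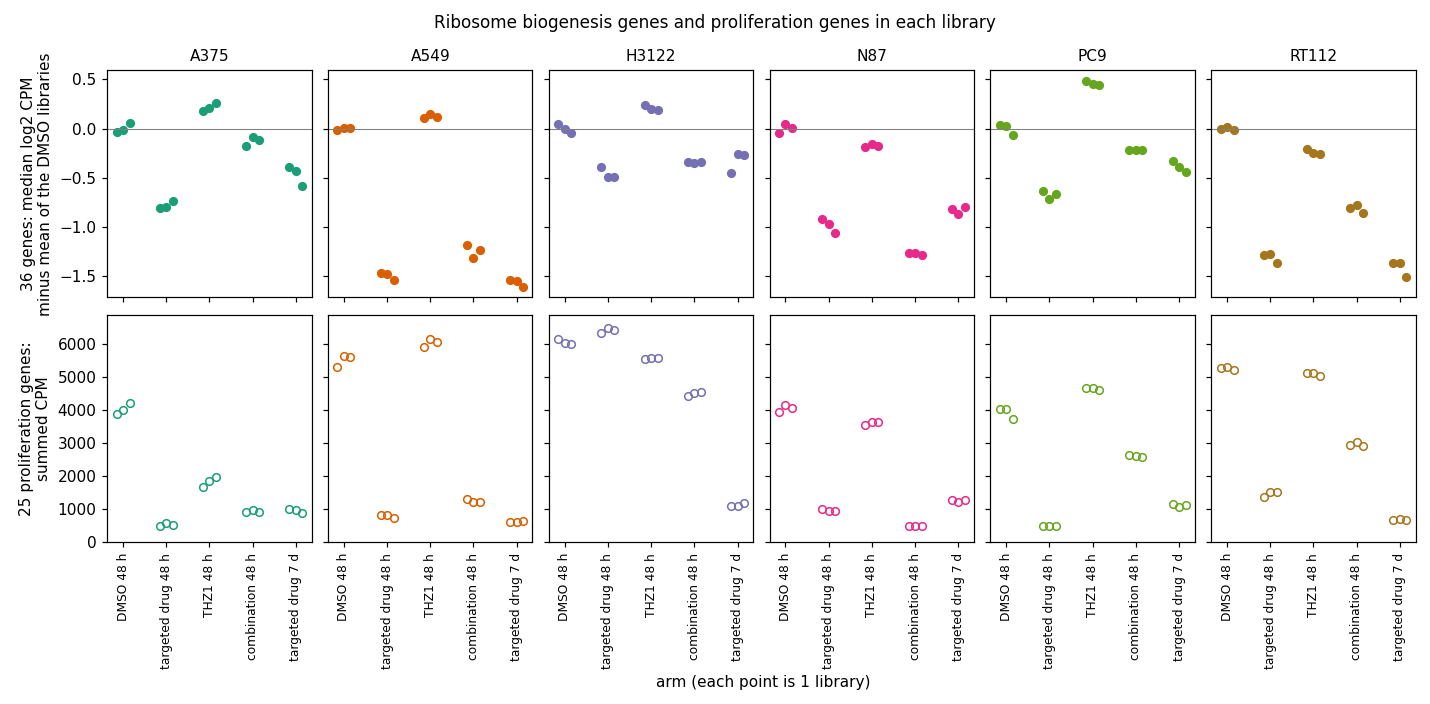
Top row, median over the 36 genes of log2 CPM minus the mean of the line's DMSO libraries (y axis), by arm (x axis), 1 point per library. Bottom row, summed CPM of 25 proliferation genes in the same libraries. Under the targeted drug for 48 h the medians lie between -1.54 and -0.39, below every DMSO library of the line, while the proliferation sum in H3122 drops at 7 days and not at 48 h.

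The effect of the targeted drug differed between lines. A test of equal effects in the 6 lines called all 36 genes under the targeted drug, where 93.7% of all tested genes were called. The error in this test and in those of 1 line against the other 5 is the spread between libraries, which may be technical. Against the mean effect of the other 5 lines, 34 members were called lower and 0 higher in A549 (beside 33.3% and 32.2% of all genes), and 30 and 2 in RT112 (26.5% and 29.3%). In H3122 32 were called higher, that is less lowered, and 0 lower (28.6% and 32.4%). The median difference was -0.60 in A549, -0.45 in RT112 and 0.48 in H3122, while over all tested genes it was between -0.04 and 0.01 in these lines. In PC9 20 were higher and 2 lower (25.4% and 31.6%), in A375 17 and 3 (33.3% and 28.1%) and in N87 9 and 7 (26.7% and 27.8%). In single genes the difference was -0.65 (SE 0.06, adjusted p = 5.85e-15) for NOP56 in A549 and 0.88 (SE 0.06, adjusted p = 1.14e-20) in H3122. For UBTF it was -0.56 (SE 0.05, adjusted p = 2e-14) in A549 and 0.40 (SE 0.05, adjusted p = 1.31e-09) in H3122. The lines differ in drug and dose as well as in tissue, and these cannot be told apart.

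THZ1 alone gave no call in the set across lines. By edgeR 0 of the 36 genes were called, where 0.0589% of all tested genes were called higher and 0.0253% lower. An unadjusted p under 0.05 was reached by 2 members in edgeR and by 4 in DESeq2, which also called 0. The median of the set was 0.09, against -0.01 for all tested genes. The comparison shares its DMSO libraries with that of the targeted drug. Within lines members were called in both directions. More members were higher than lower in 4 lines: 31 were called higher and 1 lower in PC9 (beside 26.1% and 27.7% of all genes), 24 and 5 in A375 (26.5% and 28.9%), 19 and 4 in A549 (25% and 21.5%) and 14 and 0 in H3122 (10.8% and 12.3%). The H3122 count was 9 without DMSO replicate 3, 7 without DMSO replicate 4 and 9 without THZ1 replicate 4. In RT112 2 were higher and 21 lower (21% and 20.4%), and in N87 1 was higher and 17 lower (14.1% and 16.3%). The line medians ran from -0.23 in RT112 and -0.15 in N87 to 0.43 in PC9. Against the mean of the other 5 lines, 33 members were higher and 0 lower in PC9 (25% and 19.5%), 1 and 30 in RT112 (19.7% and 19.2%) and 0 and 30 in N87 (15.2% and 20.3%). In all, 21 members were called higher in at least 1 line and lower in another, and the share of all tested genes that did so was not counted. Each line had 1 THZ1 dose, so dose and line cannot be told apart.

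The members at the ends of the range under THZ1 were NPM1, FBL, NOP2 and RRN3, and none of them was called across lines. NPM1 was below 0 in all 6 lines, with 1489, 1614 and 1695 CPM in A375 DMSO and 959, 1004 and 1051 under THZ1, and was at -0.37 (SE 0.15, adjusted p = 0.33) across lines. FBL was at -0.32 (SE 0.20, adjusted p = 0.602), with its lowest values in RT112 (-0.69) and A375 (-0.57). At the other end, RRN3 was at 0.38 (SE 0.17, adjusted p = 0.364) across lines. It was at 57.6, 59.6 and 62.9 CPM in PC9 DMSO and 101, 103 and 109.9 under THZ1, was called higher in 5 lines and was at -0.04 in N87. NOP2 was at 0.35 (SE 0.19, adjusted p = 0.509), called higher in A375, A549 and PC9. NOP56 was at 120.4, 127 and 132 CPM in PC9 DMSO and 246, 257 and 259 under THZ1, a log2 fold change of 0.98, while in the other lines it lay between -0.17 and 0.05. The PC9 effect on NOP56 exceeded the mean of the other 5 lines by 1.002 (SE 0.06, adjusted p = 1.34e-22). FBL in RT112 was at 189.8, 190.0 and 204 CPM in DMSO and 116, 120.4 and 126 under THZ1, and NOP2 in PC9 at 97.2, 99.3 and 101 and then 168, 168 and 171. The largest called rise was BYSL, a small subunit factor, in A375 (0.64) and A549 (0.65), RRN3 in H3122 and RT112, and UTP20 in N87 (0.24). The largest called fall was DKC1 in A549 (-0.30) and GNL3 in N87 (-0.58). The cytosolic ribosomal proteins had a median of -0.49 across lines with 0 called, and within lines between 31 and 35 of the 35 were called lower. The biogenesis genes and the ribosomal proteins therefore had medians of opposite sign in A375, A549, H3122 and PC9. The proliferation genes fell in A375, where their summed level was 4039 ± 172 CPM in DMSO and 1832 ± 160.3 under THZ1, while the 36 genes summed to 6063 ± 249 and 5750 ± 170.4. NPM1 alone had means of 1599 and 1005 CPM there, a larger fall than that of the sum, so sums over the set lean on NPM1.

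With THZ1 added to the targeted drug, the median of the set lay above that under the targeted drug alone in 5 lines and below it in N87. Across lines 5 of the 36 genes were called higher and 0 lower, beside 3.7% of all tested genes called higher and 4.34% lower. The 5 were NOP56 at 1.04 (SE 0.29, adjusted p = 0.028), NPM3 at 0.87 (SE 0.25, adjusted p = 0.0338), NOP2 at 0.76 (SE 0.19, adjusted p = 0.0168), RRN3 at 0.68 (SE 0.17, adjusted p = 0.0147) and UTP15 at 0.55 (SE 0.15, adjusted p = 0.0273). UTP4, at 0.49 (SE 0.15, adjusted p = 0.0504), and NOLC1, at 0.61 (SE 0.20, adjusted p = 0.0555), just missed the threshold. The 5 calls depend on single lines, since 0 members were called higher without A375, without PC9 or without RT112, and 0 when only the libraries of the 2 arms were fitted. The median of the set was 0.26. Within lines, 32 members were called higher and 2 lower in A375 (beside 35.1% and 33.4% of all genes), 31 and 0 in RT112 (32.8% and 31.4%) and 28 and 2 in PC9 (33.4% and 34.9%). In A549 21 were higher and 1 lower (20.3% and 20.6%), and in H3122 9 and 1 (15.3% and 14.3%). In N87 1 was higher and 25 were lower (27% and 28.8%). The line medians were 0.62 in A375, 0.52 in RT112, 0.47 in PC9, 0.25 in A549, 0.10 in H3122 and -0.36 in N87. In H3122 the summed level of the set pointed the other way. It was 70.6% of DMSO in the combination and 71.9% under crizotinib alone. The largest called rise was RRN3 in A549 (0.70) and NOLC1 in H3122 (0.49), and the largest called fall was UTP20 in H3122 (-0.22) and NOB1 in PC9 (-0.36). This comparison shares its targeted drug libraries with the comparison against DMSO, so a low value in those libraries enters both.

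**Figure D4:**
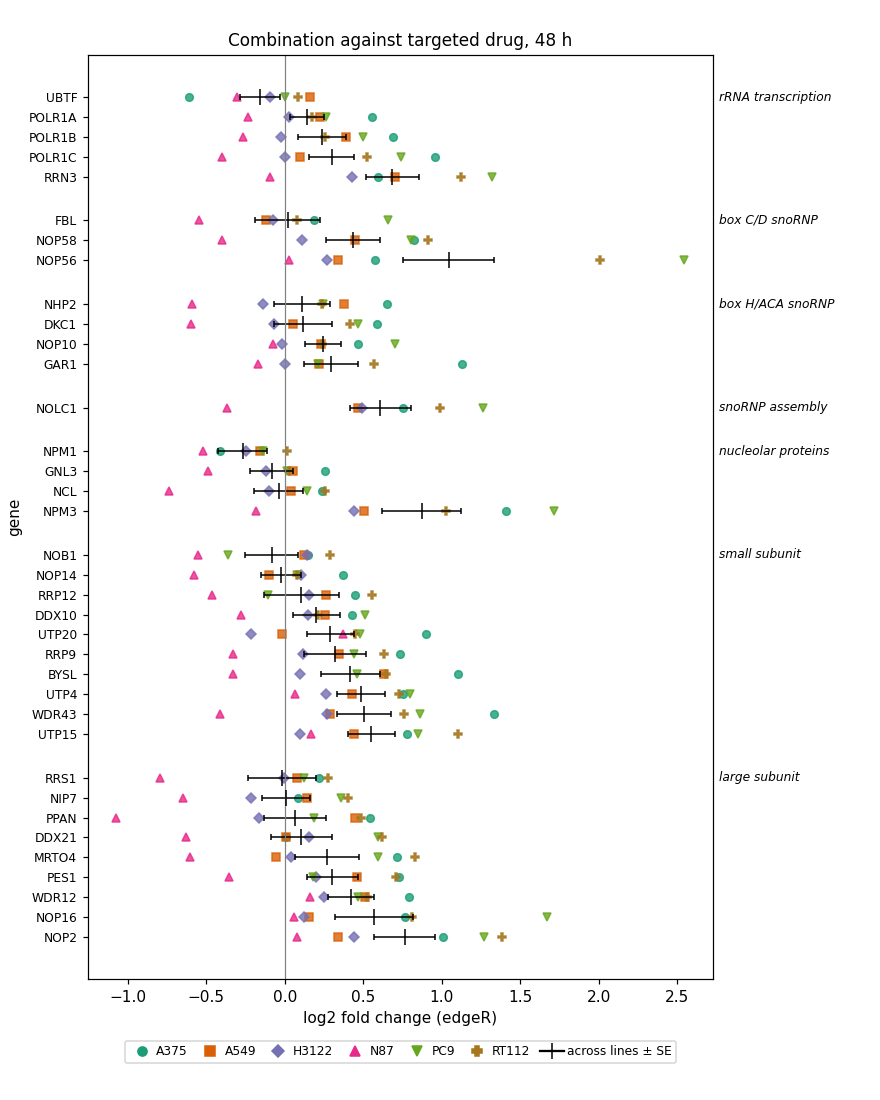
Log2 fold change of each gene (x axis) in the combination against the targeted drug, both for 48 h, with genes on the y axis grouped by role. Coloured points are the 6 lines and black bars are the value across lines ± SE. N87 lies left of 0 for most genes, and NOP56 stands far right in PC9 (2.54) and RT112 (2.01).

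NOP56 had the largest rise. In PC9 it was at 120.4, 127 and 132 CPM in DMSO, 53.7, 56.3 and 61.5 under erlotinib and 314, 337 and 346 in the combination. In RT112 the values were 194, 200.2 and 213, 64.8, 65.6 and 66.4 and 239.7, 249 and 270.1. In both lines every combination library was above every DMSO library, by 1.42 (SE 0.04, adjusted p = 3.76e-16) in PC9 and 0.32 (SE 0.05, adjusted p = 1.41e-05) in RT112. In N87 the combination, at 83.4, 84.0 and 89.7 CPM, overlapped lapatinib alone, at 78.3, 86.1 and 89.7. The combination effect on NOP56 exceeded the mean of the other 5 lines by 1.92 (SE 0.06, adjusted p = 6.27e-38) in PC9 and 1.199 (SE 0.06, adjusted p = 1.95e-26) in RT112. NOP58 and FBL, the partners of NOP56 in the same particle, rose in PC9 by 0.81 and 0.66 and stayed below DMSO there, at -0.43 and -0.32. RRN3 in PC9 was at 57.6, 59.6 and 62.9 CPM in DMSO, 45.2, 46.2 and 48.0 under erlotinib and 110.1, 116 and 120.2 in the combination, also above every DMSO library. NPM3 in A375 was at 39.8, 40.4 and 43.7 CPM in DMSO, 16.5, 17.1 and 18.9 under vemurafenib and 45.5, 48.2 and 48.6 in the combination, a change of 1.41 (SE 0.08, adjusted p = 5.89e-12) against vemurafenib. Every combination library was above every DMSO library.

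NPM1 and UBTF had the lowest values of the set in this comparison, and neither was called across lines. NPM1 was at -0.27 (SE 0.15, adjusted p = 0.294) across lines, with 543, 570.0 and 598 CPM under lapatinib and 382, 388 and 415 in the combination in N87. UBTF was at -0.16 (SE 0.13, adjusted p = 0.481), with a fall in A375 from 192, 192 and 201 CPM under vemurafenib to 131, 131 and 133. In N87 the largest fall was in PPAN, a large subunit factor, at -1.07 (SE 0.09, adjusted p = 6.42e-09), and the small subunit factor UTP20 was the 1 member called higher, at 0.37 (SE 0.06, adjusted p = 3.03e-05). Against the mean of the other 5 lines, 35 of the 36 members were lower and 0 higher in N87 (29.3% and 30.6% of all genes), with a median difference of -0.73 against 0.02 over all tested genes. Beside this, the proliferation genes had a median of -1.05 in N87, -0.58 in H3122, 0.70 in A549, 1.04 in A375, 1.12 in RT112 and 2.85 in PC9. Their part in the result was not tested. The cytosolic ribosomal proteins went the other way, with 17 of 35 called lower across lines and a median of -0.50. Of the 103 other biogenesis genes 11 were called higher and 1 lower, with WDR74, a large subunit factor, at 1.67 (SE 0.28), and NOP53 at -1.11 (SE 0.20).

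**Figure D5:**
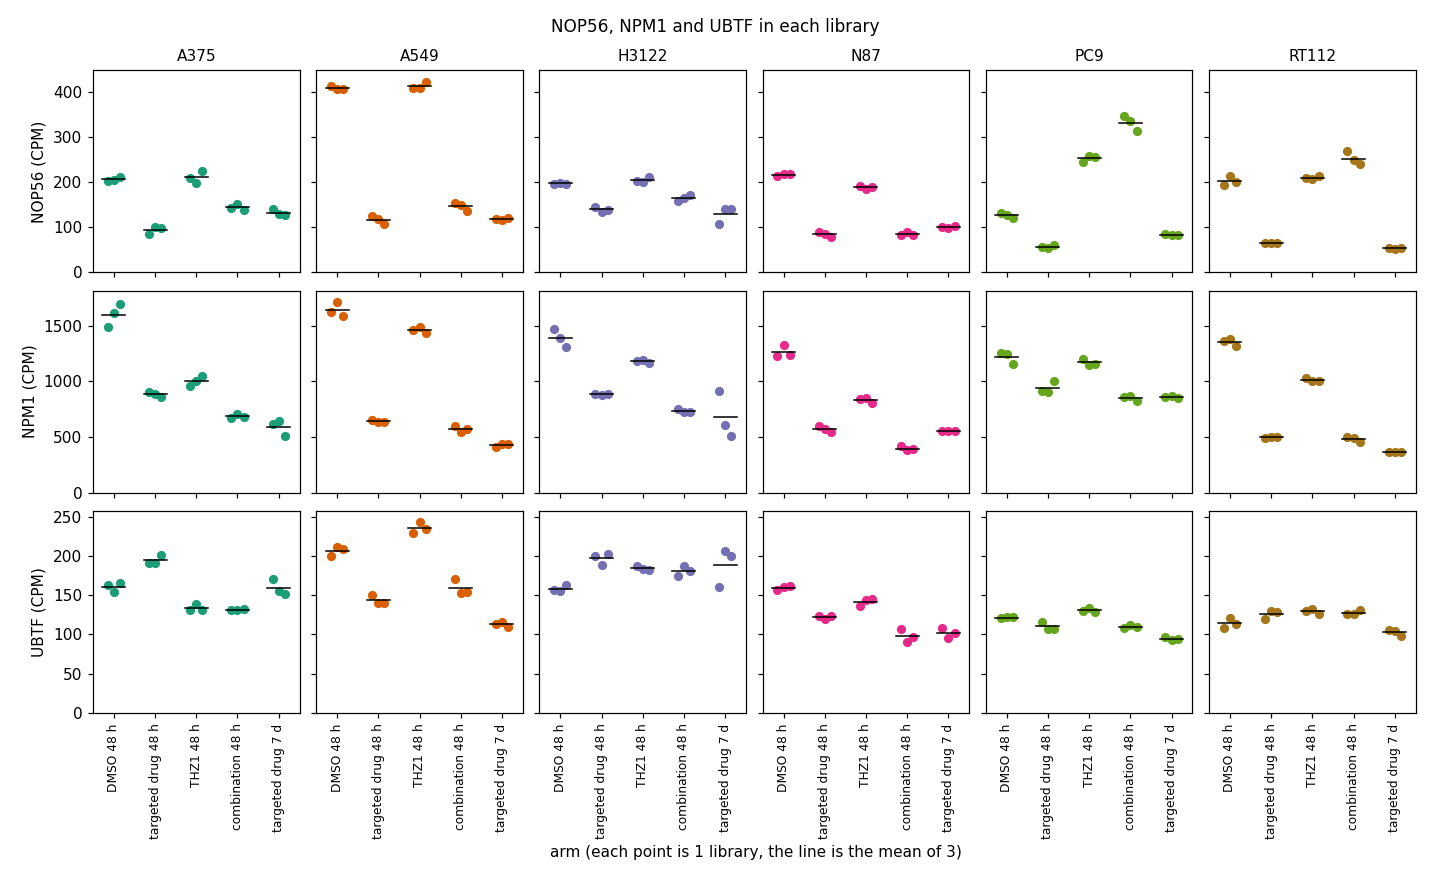
Level (y axis, CPM) of NOP56, NPM1 and UBTF by arm (x axis) in each line, 1 point per library with a line at the mean of 3. In the combination NOP56 lies above its DMSO libraries in PC9 and RT112, and the mean of NPM1 lies below its DMSO mean in all 6 lines. UBTF lies above DMSO under the targeted drug in A375 and below it in A549.

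Set against DMSO, most of the set was lower in the combination. Across lines 26 of the 36 genes were called lower and 0 higher, beside 15.4% and 15.5% of all tested genes, with a median of -0.60. The count was 13 without N87. The lowest were NPM1 at -1.203 (SE 0.16, adjusted p = 4.06e-05) and FBL at -1.14 (SE 0.21, adjusted p = 0.000546). NOP56, at -0.16 (SE 0.29, adjusted p = 0.694), was not called, and its lines pointed both ways. The largest called fall was NPM1 in A375 (-1.28) and H3122 (-0.89), MRTO4 in N87 (-2.26), DKC1 in A549 (-2.07), FBL in RT112 (-1.83) and NCL in PC9 (-0.62). RRN3 was above DMSO in A375 (0.47), and UBTF in H3122 (0.23). In summed CPM the combination held 85.8% of the DMSO level in PC9, 73.7% in A375, 70.6% in H3122, 52.2% in RT112, 39.9% in A549 and 36.1% in N87. Under the targeted drug alone these shares were 66.7, 58.4, 71.9, 39.8, 36.9 and 49.2%. In the same libraries the mitochondrial share of counts had a mean of 2.38% in DMSO and 2.39% in the combination in A375. It was 3.51 and 4.74% in A549, 3.79 and 4.88% in H3122, 4.12 and 5.26% in N87, 3.58 and 5.06% in PC9 and 4.63 and 6.18% in RT112, and its part in the result was not tested. Against THZ1 alone, 30 members were called lower and 0 higher in the combination, beside 10.6% and 10.1% of all tested genes, with MRTO4 lowest at -1.17 (SE 0.20, adjusted p = 0.00184). MRTO4 in A549 was at 125, 126 and 136 CPM under THZ1 and 33.1, 33.8 and 34.3 in the combination. That count was 19 without A549 and 19 without N87. A test of the interaction, whether the combination differs from the sum of both single effects on the log2 scale, called 0 members and 0% of all genes across lines in edgeR, with 0 in DESeq2 and 2 members at an unadjusted p under 0.05. Within lines the interaction was called positive for 33 members and negative for 0 in RT112 (24.7% and 22.5% of all genes), for 27 and 1 in A375 (26.7% and 23.8%), and for 2 and 15 in N87 (11.5% and 15.5%). The counts were 14 and 4 in PC9 (22.8% and 19.7%), 11 and 5 in A549 (15.3% and 14.8%) and 0 and 2 in H3122 (4.05% and 3.57%). The largest called interaction was NPM3 in A375 (1.23), NOP58 in A549 (0.75) and NOP16 in N87 (0.36), and the most negative was RRS1 in N87 (-0.67), NOB1 in PC9 (-0.67), POLR1C in A549 (-0.51), NIP7 in H3122 (-0.42) and UBTF in A375 (-0.32). NOP56 had interactions of 1.96 (SE 0.07, adjusted p = 1.63e-11) in RT112 and 1.57 (SE 0.07, adjusted p = 9.86e-14) in PC9.

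After 7 days most of the set was below DMSO, and the changes from 48 h went both ways. Against DMSO 31 of the 36 genes were called lower and 0 higher across lines, beside 20.3% and 22.9% of all tested genes, with a median of -0.75. FBL in A549 was at 283, 288 and 294 CPM in DMSO and 51.1, 59.3 and 59.8 at 7 days. Across lines FBL was lowest, at -1.38 (SE 0.21, adjusted p = 5.72e-05), followed by NPM3 at -1.30 (SE 0.25, adjusted p = 0.000392). The largest called fall against DMSO was NPM1 in A375 (-1.49) and H3122 (-1.09), NPM3 in N87 (-1.64), NOP58 in PC9 (-0.88) and NOP16 in RT112 (-2.51). Between 7 days and 48 h of the targeted drug, 0 members and 0% of all genes were called across lines in edgeR, with 4 members at an unadjusted p under 0.05 and 0 members called in DESeq2. Within lines, 25 members were called higher and 4 lower in A375 (18.6% and 21.4% of all genes), 23 and 4 in PC9 (25.7% and 27.2%) and 14 and 5 in N87 (22.3% and 20.3%). In H3122 12 were higher and 13 lower (30.5% and 33.4%), in A549 5 and 11 (27.6% and 23.7%) and in RT112 4 and 10 (18.5% and 18.5%).

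NPM1 and UBTF were below their 48 h level in all 6 lines at 7 days. NPM1 in A375 was at 857, 885 and 906 CPM at 48 h and 509, 615 and 646 at 7 days, and across lines it was at -0.34 (SE 0.15, adjusted p = 0.753). UBTF was at -0.25 (SE 0.13, adjusted p = 0.79), and in A549 at 139.6, 139.9 and 150.4 CPM and then 109.7, 114 and 116. RRP12 and RRS1, a large subunit factor, lay at the other end, at 0.50 (SE 0.24, adjusted p = 0.771) and 0.50 (SE 0.22, adjusted p = 0.732) across lines. RRP12 in H3122 was at 74.4, 77.5 and 87.02 CPM in DMSO, 46.4, 48.2 and 52.2 at 48 h of crizotinib and 96.9, 139.7 and 146 at 7 days, so that all 7-day libraries were above all DMSO libraries. The lowest of the 7-day values is replicate 1. In PC9 RRP12 was also above DMSO at 7 days, at 0.63 (SE 0.05, adjusted p = 1.78e-10), while in A549 and RT112 it was at -1.58 and -1.70. RRS1 in H3122 was at 25.5, 26.7 and 30.2 CPM at 48 h and 51.9, 63.3 and 76.8 at 7 days. From 48 h to 7 days the largest called rise was PPAN in A375 (0.60), RRP9 in A549 (0.33), MRTO4 in N87 (0.45), NOP16 in PC9 (0.97) and GNL3 in RT112 (0.21). The largest called fall was NPM1 in A549 (-0.51) and RT112 (-0.44), UBTF in N87 (-0.28) and PES1 in PC9 (-0.31). UTP20 in H3122 moved against RRP12, at -0.87 (SE 0.06, adjusted p = 3.83e-10) between 48 h and 7 days. The 25 proliferation genes in H3122 summed to 6421 CPM at 48 h and 1123 at 7 days, while the 36 genes summed to 4215 and 4075.

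The 36 genes varied together over the libraries. After the mean of each line was subtracted, the log2 CPM of the 630 pairs of members had a median Pearson r of 0.85 over 90 libraries, from 0.36 to 0.97, with 0 pairs below 0. Differences between arms were kept in these values, and pairs of other genes were not looked at. The libraries share arms and depth, so these values are a description and do not set the members apart from other genes. NOLC1 and MRTO4 followed the rest most closely, each with r = 0.98 against the mean of the other members, and DKC1 and NCL were the closest pair at 0.97. UBTF was least like the rest at 0.56, followed by RRN3 at 0.74. Of the 36, 7 have small nucleolar RNA genes within their span on the same strand in GENCODE v29, GNL3 with 6, NOP56 with 5, NOP58 with 4, NCL and WDR43 with 3 each, and DKC1 and PPAN with 2 each. Under the targeted drug the 7 host genes had a median of -1.08 across lines and the other 29 members -0.83. In the combination against the targeted drug the medians were 0.12 and 0.27, although NOP56 is itself a host. Members with an E-box in the promoter window had a median of -0.98 under the targeted drug and those without had -0.89.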

How the data were processed

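Each of the 90 libraries was RNA of 1 line and arm. The authors deposited expected counts, made with RSEM 1.2.12 and Bowtie2 2.2.1 on hg19, per the submitters' processing notes; the annotation and strand setting are not given in the sources used here. RSEM divides reads shared by near-identical sequences, which bears on NPM1, RRN3 and PPAN. Expected counts were rounded to whole numbers. Across lines, the 3 libraries of each line and arm were summed, and arm and line were fitted with edgeR 4.0.16 (R 4.3.3, TMM, quasi-likelihood). Genes needed 1 CPM in at least 3 libraries of every line. Within a line, 15 libraries were fitted with edgeR's default low-count filter, and line differences were fitted on all 90 libraries. Calls are Benjamini-Hochberg adjusted p under 0.05 over all genes tested. DESeq2 1.42.0, other scalings, filters and left-out libraries or lines were alternatives. The scripts were tested on simulated data for the targeted drug at 48 h, across lines and within A375. In the simulation across lines each gene had the same level and the same fold in every line. Differences between lines, as seen here, were therefore not covered. All members are accounted for; values per library are given for the member of each role with the highest mean level and for the extremes of each comparison, the largest called rise and fall are named by line, and of other pathway genes up to 3 with the largest called change in each direction. Members and lists were chosen with earlier results of these data known. The rule set for pairing read only comparisons with 3 shared replicate numbers, and by it the numbers did not pair the libraries in any line. RT112 libraries numbered 1 deviated together, however, and the targeted drug at 48 h against DMSO in RT112 had r of 0.45 for number 1 and 0.22 for number 2. No block was used. Promoters come from RefSeq (GRCh38.p14).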

Additional observations from a re-analysis of the deposited data

Results flagged for a closer look

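NOP56 under THZ1 had 1 line far from the others. Its log2 fold change in PC9, 0.98, lay above the other 5 lines by more than the gap allowed for 6 values (Dixon's critical value 0.625). Of 41 sets of 6 line values looked at, 1 was flagged in this way. Chance flags about 1 in 20, so 1 flag among 41 sets is no more than chance gives.

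The effect of treatment differed between the 6 lines, by a test of the difference itself, for 36 of 36 members under the targeted drug, 36 under THZ1 and 36 in the combination against the targeted drug. Between 7 days and 48 h of the targeted drug it differed for 35. Among all genes tested the shares were 93.7%, 83.9%, 92.4% and 90.7%, so the members are near the background. The error in this test is the spread between libraries, which may be technical.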

How the results depend on the processing

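The count of members lowered by the targeted drug at 48 h stayed within 1.5 times of its value under every alternative run. Across lines, the combination against the targeted drug had 9 members called higher by DESeq2, 0 without the low-count filter and 0 with only the arms compared, and from 0 (without A375, PC9 or RT112) to 7 with 1 line left out. The combination against DMSO had 15 called lower with only the arms compared, and 13 to 27 with 1 line left out, the lowest without N87. Against THZ1 the range was 19 to 30, the lowest without A549 or N87. THZ1 had 1 member lower with only the arms compared. UBTF under the targeted drug at 48 h, with a main value of 0.001, turned to -0.0195 with library totals, -0.0916 without the filter, -0.0013 without RT112 replicate 1 and the 7-day H3122 replicate 1, and -0.0039 with only the arms compared, and ran from -0.082 to 0.096 with 1 line left out. Leaving out 1 line also turned the sign of uncalled values: NOP56 under THZ1 ran from -0.0128 to 0.1991, RRP12 at 7 days against DMSO from -0.4606 to 0.0325, and in the combination against DMSO NOP56 from -0.5409 to 0.0751 and POLR1C from -0.2087 to 0.04.

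Within lines the counts that moved were mostly small. Between 7 days and 48 h, A549 had 6 lower by DESeq2, 3 higher with library totals and 3 without the filter, with 7 to 10 lower and 2 to 5 higher with 1 library left out. N87 had 1 lower by DESeq2, 2 with RLE scaling and 1 without the filter, with 1 to 3 with 1 library left out. RT112 had 2 higher by DESeq2, 2 with library totals and 1 without the filter, with 1 to 4 with 1 library left out. Under THZ1, PC9 had 0 lower by DESeq2, with RLE scaling and with library totals, and 0 to 1 with 1 library left out. H3122 had 1 lower without the filter, and 7 to 12 higher with 1 library left out. N87 had 3 higher with library totals, and 1 to 2 with 1 library left out. In the combination against the targeted drug, H3122 had 2 lower with RLE scaling and 2 without the filter, and 0 to 1 with 1 library left out. N87 had 2 higher with library totals and 1 to 2 with 1 library left out, PC9 had 1 lower with library totals, and A549 had 1 to 2 lower with 1 library left out. RT112 under the targeted drug had 1 higher with library totals, and 0 to 1 with 1 library left out. The cause of these moves was not tested.

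Of 10 line comparisons with 3 shared replicate numbers, 0 had every correlation of same-numbered libraries over 0.1. The correlations ran from -0.1484 to 0.4833 and reached at most 0.1786 outside RT112. With the replicate number as a block, 2 of 48 counts moved, to 3 lower in N87 between 7 days and 48 h and to 0 lower in PC9 under THZ1. With 3 libraries a group, small changes in low members are the least certain.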
